A study of Mus musculus with 18 samples.

Results

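The matrix metalloproteinases (MMPs), the ADAM and ADAMTS proteinases, the ADAMTS-like proteins and the tissue inhibitors of metalloproteinases (TIMPs) were taken from the gene count table by name and biotype. The rule kept protein coding genes named *Mmp* or *Adam* with a number, *Adamts* or *Timp1* to *Timp4*, and it found 83 of the 54532 genes listed. These were 22 MMP, 33 ADAM, 19 ADAMTS, 5 ADAMTS-like and 4 TIMP genes. They were measured by RNA sequencing in 18 libraries of C3H10T1/2 (10T1/2) cells, a multipotent mouse fibroblast line that the labels call mesenchymal stem cells. The libraries formed 6 groups of 3, from WT cells and from FOXS1 KO clones 1 and 2, each either uninduced (labelled Control) or stimulated. Stimulation meant 12 h in 1 nM TGF-β1 and a further 48 h in DMII, an adipogenic cocktail (insulin, indomethacin, dexamethasone and 3-Isobutyl-1-methylxanthine), so the effects of the profibrotic and the adipogenic stimulus cannot be told apart in these libraries. *Foxs1*, a forkhead transcription factor gene, was targeted with CRISPR-Cas9 and paired guide RNAs, and all cells were grown past confluence before treatment. Each KO line was a single clone grown from 1 cell, so a difference between a clone and WT cannot be told apart from a difference between clones.

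MMPs and ADAMTS proteinases are zinc enzymes that cut collagens, proteoglycans and other proteins of the extracellular matrix, and most ADAMs sit in the plasma membrane and release the outer parts of growth factors, receptors and adhesion proteins. ADAMTS-like proteins lack the catalytic domain and bind microfibrils, while TIMPs block the active site of MMPs and, in the case of TIMP3, also of several ADAM and ADAMTS enzymes. Fibroblasts are a main source of these proteins, and TGF-β1 is known to regulate many of them during scar formation and adipose tissue remodeling.

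Total counts per library ran from 15576685 to 42005596, of which the 83 genes took 0.864% to 1.06%. Values are CPM, counts scaled to a common library size after TMM normalization, given for replicates 1, 2 and 3 in that order or as mean ± SD with n = 3. Nothing in the labels states whether the replicates were separate cultures, so p-values measure the spread between these libraries, which may be technical. Uninduced WT replicate 1 stood furthest from its replicates, with chi-square values over degrees of freedom of 13.1 and 14.6 where the closest pair of replicates had 3.13. Stimulated clone 1 replicate 1 also stood apart, with 12 and 11.1, where replicates 2 and 3 of that group had 6.87. *Foxs1* had 1.81, 3.25 and 1.64 CPM in the uninduced and 3.13, 2.55 and 1.85 CPM in the stimulated WT libraries. The libraries labelled FOXS1 KO were higher, with 26.7, 27.1 and 23.4 CPM in uninduced and 53.6, 52.9 and 56.8 CPM in stimulated clone 1. In clone 2 they had 21.1, 22.9 and 23.9 CPM uninduced and 38.8, 38.0 and 42.8 CPM stimulated. The paper reports a disrupted locus from genomic DNA sequencing and, on a western blot, loss of FOXS1 protein in both clones. Gene counts do not show an edit, so every direction between genotypes below rests on the labels, and "clone" below stands for the libraries labelled FOXS1 KO. At least 8 of 10 fibroblast markers reached 1 CPM in every group, and *Ptprc*, the pan-leukocyte marker, had no count in any library. A list of 5 macrophage markers that holds *Ptprc* summed to 0.990 to 1.99 CPM in uninduced WT cells. Its sums were 5.70 to 7.07 CPM in uninduced clone 1 and 6.05 to 6.55 CPM in uninduced clone 2. In stimulated WT cells and clones 1 and 2 they were 0.636 to 0.734, 0.639 to 0.811 and 0.448 to 1.44 CPM. Of the 5 markers, 1 reached 1 CPM in uninduced clone 1, 2 in uninduced clone 2 and 0 in each other group. The summed level of 8 adipocyte markers was 65.2 to 69.5 CPM in uninduced and 10.5 to 13.0 CPM in stimulated WT cells, 51.5 to 57.2 and 93.3 to 110 CPM in clone 1 and 54.6 to 57.8 and 33.9 to 45.05 CPM in clone 2, with *Lep* at 0 in every group. That of 6 chondrocyte and osteoblast markers was 1057 to 1187 and 1102 to 1246 CPM in WT cells, 932 to 960.0 and 1445 to 1548 CPM in clone 1 and 1520 to 1608 and 2495 to 2673 CPM in clone 2. The part of these cell states in the results below was not tested.

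In the test, 43 of the 83 genes passed the filter on low counts (11 MMP, 10 ADAM, 13 ADAMTS, 5 ADAMTS-like and 4 TIMP). Of the 40 that did not, 22 had no count in any library, and the highest total over all 18 libraries was 68, for *Adam1a*. The untested genes included 8 of the 9 members of the MMP cluster on chromosome 9 (GRCm38, chr9:7272514-7699585), among them the collagenase gene *Mmp13* with 51 counts, and only the stromelysin gene *Mmp3* was tested there. Per kilobase of gene length, *Timp2* was the highest tested gene in uninduced WT cells at 654 CPM per kb. It was followed by *Mmp2* at 453, *Timp3* at 213, *Mmp14* at 183 and *Timp1* at 65.5 CPM per kb. After stimulation *Timp1* led at 1153 CPM per kb, ahead of *Mmp2* at 827 and *Timp2* at 456 CPM per kb. The ADAM and ADAMTS genes stayed lower, and the highest of them in uninduced WT cells were *Adamts1* at 56.1 and *Adam9* at 35.3 CPM per kb.

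Promoter sequences from RefSeq (GRCm38.p6), each 250 bases before to 50 bases after the annotated start, were matched to 52 of the 83 genes and to 26 of the 43 tested genes. Both strands were searched for the AP-1 word TGACTCA or TGAGTCA, the SMAD word CAGAC or GTCTG, the forkhead core word TAAACA or TGTTTA and the TATA word TATAAA, none of which overlap in the 4 promoters below. Of 6 promoters of genes lower in both clones in both treatments, the 2 with a forkhead core word, *Timp3* and *Adam19*, are shown. The others, of *Adam23*, *Adamts2*, *Adamts9* and *Adamts17*, held none of these words. Of 4 promoters of genes that rose on stimulation in every genotype, the 2 with a TATA word, *Mmp3* and *Adamtsl2*, are shown. *Adam19* is also among these 4, and the last, *Timp1*, held none of the words. Capitals mark the words found.
*Timp3*, chr10:86300162-86300461, plus strand: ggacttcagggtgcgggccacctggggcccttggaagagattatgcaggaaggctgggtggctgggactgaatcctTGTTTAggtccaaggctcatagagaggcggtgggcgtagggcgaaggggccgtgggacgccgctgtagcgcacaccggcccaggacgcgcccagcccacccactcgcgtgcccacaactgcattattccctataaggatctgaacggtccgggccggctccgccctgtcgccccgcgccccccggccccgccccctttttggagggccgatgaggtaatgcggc
*Adam19*, chr11:46055734-46056033, plus strand: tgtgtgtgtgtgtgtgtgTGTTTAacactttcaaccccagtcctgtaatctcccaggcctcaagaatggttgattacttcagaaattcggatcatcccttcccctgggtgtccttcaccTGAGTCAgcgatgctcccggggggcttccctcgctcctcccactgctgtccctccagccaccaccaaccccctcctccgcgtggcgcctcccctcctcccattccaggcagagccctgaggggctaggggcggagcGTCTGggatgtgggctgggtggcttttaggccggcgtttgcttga
*Mmp3*, chr9:7445572-7445871, plus strand: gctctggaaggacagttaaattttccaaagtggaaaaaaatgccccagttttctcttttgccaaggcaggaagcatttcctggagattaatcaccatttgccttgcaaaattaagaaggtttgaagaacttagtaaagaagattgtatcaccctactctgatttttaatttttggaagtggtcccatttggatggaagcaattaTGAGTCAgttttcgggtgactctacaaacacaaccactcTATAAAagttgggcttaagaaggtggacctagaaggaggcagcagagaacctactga
*Adamtsl2*, chr2:27079129-27079428, plus strand: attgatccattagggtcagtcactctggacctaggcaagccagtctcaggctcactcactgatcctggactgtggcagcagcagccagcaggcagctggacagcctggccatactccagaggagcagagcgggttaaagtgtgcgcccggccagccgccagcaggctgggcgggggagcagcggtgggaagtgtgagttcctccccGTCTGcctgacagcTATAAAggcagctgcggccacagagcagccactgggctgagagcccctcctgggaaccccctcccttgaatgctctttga
The forkhead core word was present in 3 of the 26 tested promoters (11.5%; *Timp3*, *Adam19* and *Adam8*) and in 13.4% of all 32851 promoters in the table. The AP-1 word was present in 2 of 26 (7.69%; *Adam19* and *Mmp3*) against 5.2% of all promoters, and the SMAD word in 9 of 26 (34.6%) against 49.6%. The TATA word stood in 3 of 26 (11.5%; *Mmp3*, *Adamtsl2* and *Adamts1*) against 8.32% of all promoters. These matches describe letters in a short window and not binding.

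DEGs were called with edgeR's quasi-likelihood test over all 14317 tested genes, with an absolute log2 fold change over 1 and an adjusted p (Benjamini-Hochberg) under 0.05. Stimulation changed 25 of the 43 genes in WT cells, 9 higher and 16 lower, where 6.25% of all tested genes were higher and 13.6% lower. In clone 1 stimulation changed 22 genes, 10 higher (5.95% of all genes) and 12 lower (10.7%), and in clone 2 it changed 23, 12 higher (6.46%) and 11 lower (11.2%). On stimulation the median log2 fold change of the 43 genes was -0.54 in WT cells, with -0.18 and -0.42 in clones 1 and 2. Genes at 0 counts in a group were then set at their bound, or at 0 where they had no bound. The medians became -0.54, -0.15 and 0, and the 0 of clone 2 is such a set value, not a measured fold change. Relative to uninduced WT cells, 5 genes were higher and 14 lower in clone 1 (6.32% and 8.73% of all genes), and 3 were higher and 17 lower in clone 2 (5.54% and 9.56%). Relative to stimulated WT cells, 4 were higher and 16 lower in clone 1 (9.42% and 9.6% of all genes), and 5 were higher and 17 lower in clone 2 (7.95% and 8.94%). At these thresholds lower calls against WT thus took 32.6% to 39.5% of the 43 genes and higher calls 6.98% to 11.6%. By adjusted p alone the directions were closer, with 14 genes higher and 20 lower in uninduced clone 1 and 12 and 21 in uninduced clone 2. They were 14 and 20 in stimulated clone 1 and 14 and 19 in stimulated clone 2. By adjusted p alone 53.5%, 53.2%, 58.9% and 56.0% of all tested genes were called in these comparisons, both directions together. Both clones shared the WT libraries they were compared with. Of the 43 genes, 10 were lower in both clones in both treatments, 23.3% against 3.77% of all tested genes (*Timp3*, *Adam12*, *Adam19*, *Adam23*, *Adamts2*, *Adamts5*, *Adamts9*, *Adamts15*, *Adamts16* and *Adamts17*), and none was higher in all 4 comparisons (1.72% of all genes). These 10 genes lie on 8 chromosomes, among them *Adam12* (chr7:133883199-134232146), *Adam19* (chr11:46055992-46147343), *Adam23* (chr1:63445891-63596276), *Adamts2* (chr11:50602084-50807573), *Adamts5* (chr16:85856173-85901828), *Adamts9* (chr6:92772699-92943492) and *Adamts17* (chr7:66839735-67153171) in GRCm38. By class, 9 and 10 of the 13 ADAMTS genes were called in uninduced clones 1 and 2, the highest shares of any class there (69.2% and 76.9%), and 7 and 8 of 13 in the stimulated clones (53.8% and 61.5%). Of all tested genes, 15.1% were called in each uninduced clone, and 19% and 16.9% in stimulated clones 1 and 2. After stimulation 3 of 5 ADAMTS-like genes in clone 1 (60.0%) and 7 of 11 MMP genes in clone 2 (63.6%) were called.

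**Figure D1:**
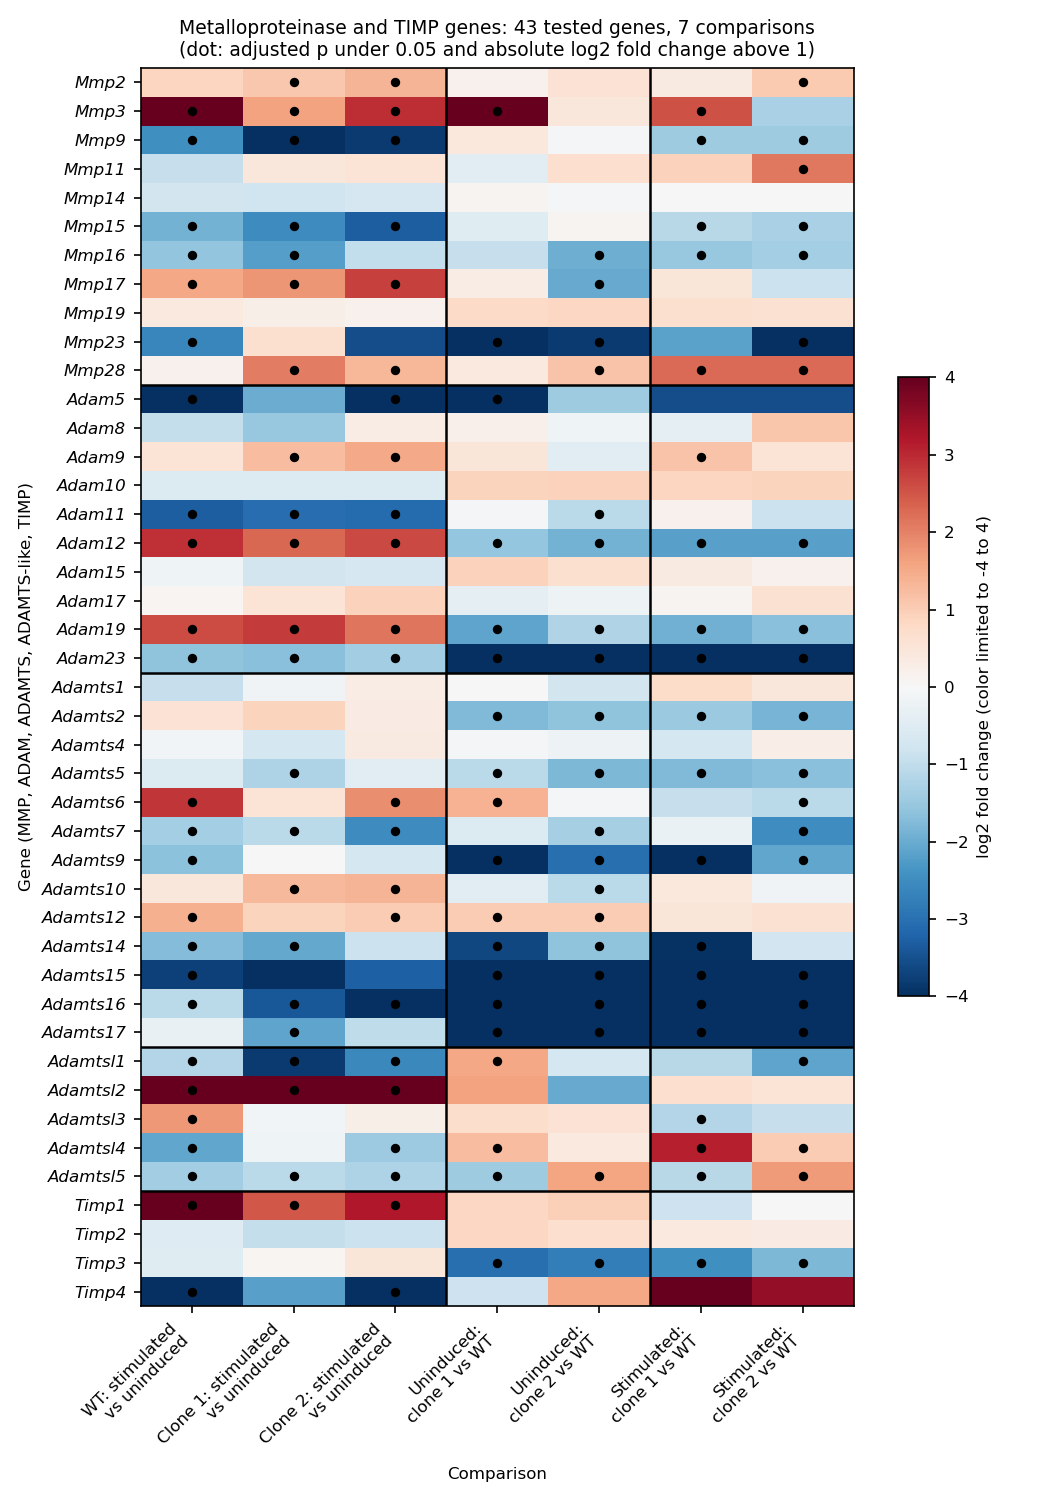
Log2 fold changes of the 43 tested genes (rows, by class) in 7 comparisons (columns), with red for higher and blue for lower values and a dot where a gene was called by edgeR. Colors end at -4 and 4, and fitted values of genes without counts in a group, such as *Timp4* in stimulated cells, depend on the model. *Timp3*, *Adam12*, *Adam19*, *Adam23* and 6 ADAMTS genes were called lower in all 4 comparisons with WT.

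*Timp3*, whose product stays bound to the matrix and inhibits ADAM17 and the aggrecanases, was lower in both clones in both treatments. It had 1849.98, 1723 and 1642 CPM in uninduced and 1249, 1284 and 1172 CPM in stimulated WT cells. In clone 1 it had 215, 214 and 222 CPM uninduced and 223, 219 and 242 CPM stimulated. In clone 2 it had 262, 258 and 255 CPM uninduced and 351, 368 and 357 CPM stimulated. Every clone library lay far below every WT library, and *Timp3* had the smallest adjusted p of all 43 genes in the comparisons with WT. In uninduced cells it was 8.01-fold lower in clone 1 (SE of the log2 fold change 0.05, adjusted p = 4.40e-28, edgeR) and 6.73-fold lower in clone 2 (SE 0.05, adjusted p = 4.02e-27). After stimulation the log2 fold changes in clones 1 and 2 were -2.44 (SE 0.05) and -1.78 (SE 0.05). Stimulation itself left *Timp3* under the fold threshold in every genotype (log2 fold changes -0.49, 0.07 and 0.47 in WT and clones 1 and 2). *Timp3* lies on chromosome 10 (chr10:86300372-86349506, plus strand) inside *Syn3*, an antisense gene whose exons cover 21.3% of the exonic bases of *Timp3*. The strand setting of the counting is not given, so their reads may be mixed, and *Syn3* had log2 fold changes of -2.92 and -2.63 in uninduced and -1.84 and -0.29 in stimulated clones 1 and 2. The 12 tested genes within 500 kb of *Timp3*, *Syn3* included, had median log2 fold changes of -0.51 and -0.77 in uninduced and stimulated clone 1 and of 0.04 and -0.07 in clone 2. In clone 1 the genes around *Adamts14* and *Mmp11*, also on chromosome 10, had medians of -0.93 and -0.68, and of -0.44 and -0.33. The part of a regional shift in these values was not tested.

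*Timp1*, a soluble inhibitor that is induced in many fibrotic tissues, was the TIMP gene that rose with stimulation. It had 51.1, 59.8 and 63.7 CPM in uninduced and 1007, 996 and 1069 CPM in stimulated WT cells, a log2 fold change of 4.13 (SE 0.07, adjusted p = 3.53e-24, edgeR). Clone 1 rose from 104, 98.7 and 106 CPM to 637, 555 and 541 CPM, and clone 2 from 112, 119 and 108 CPM to 1001, 1036 and 1102 CPM. Stimulated clone 1 stayed below stimulated WT cells (log2 fold change -0.83, adjusted p = 3.32e-11, edgeR, under the fold threshold), while stimulated clone 2 had nearly the WT level (0.03, SE 0.06, adjusted p = 0.711). Both clones started higher when uninduced, with log2 fold changes of 0.82 and 0.95 relative to WT, also under the fold threshold.

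*Timp2*, which together with MMP14 activates the MMP2 proenzyme, was called in no comparison. Its levels were 2507, 2614 and 2517 CPM in uninduced and 1743, 1821 and 1770.2 CPM in stimulated WT cells. In uninduced cells it had 4416, 4552 and 4603 CPM in clone 1 and 4086, 3921 and 4072 CPM in clone 2, and after stimulation 2349, 2365 and 2259 CPM and 2124, 2307 and 2287 CPM. The groups did not overlap between clones and WT in either treatment, and the log2 fold changes of 0.83 and 0.66 uninduced and 0.39 and 0.33 stimulated had adjusted p-values of 1.07e-08 or below in edgeR without reaching the fold threshold. The 15 tested genes within 500 kb of *Timp2* had medians of 0.80 and 0.84 in uninduced and stimulated clone 1 and of 0.32 and 0.34 in clone 2. The part of a regional shift in the values of *Timp2* was not tested. *Timp4*, the least abundant inhibitor, had 24, 6 and 15 counts in uninduced and none in stimulated WT cells, at least 15.8-fold lower at a floor of 3 counts summed over the 3 libraries. Such floors, and the counting intervals below, cover counting error only. In clone 2 it had 183 counts uninduced and 3 stimulated, 35.9-fold lower (95% counting interval 12.1 to 176). In clone 1 it had 4, 19 and 1 counts uninduced and 0, 0 and 6 stimulated, with no call (adjusted p = 0.0702, edgeR).

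**Figure D2:**
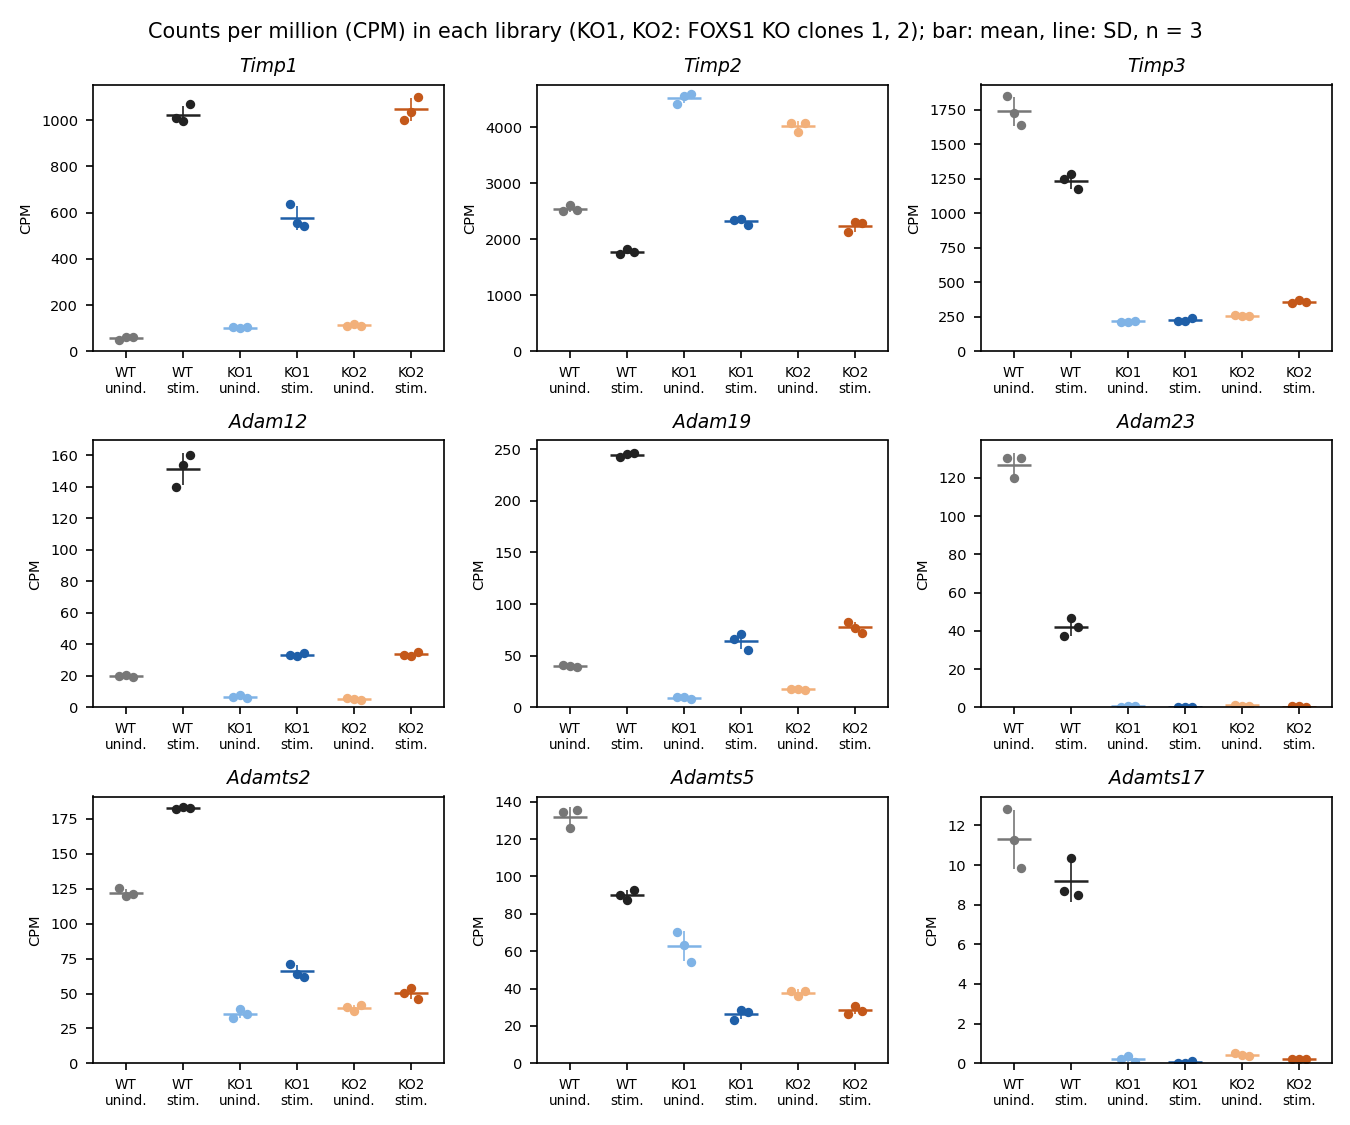
TMM-scaled CPM on a linear axis from 0 in each of the 18 libraries (points) with the group mean (bar) and SD (line) for 3 TIMP, 3 ADAM and 3 ADAMTS genes. *Timp3*, *Adam12*, *Adam19*, *Adam23*, *Adamts2*, *Adamts5* and *Adamts17* had every clone library below every WT library of the same treatment, while *Timp2* had every clone library above.

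*Adam12* (meltrin alpha) and *Adam19* (meltrin beta), membrane proteinases first described in fusing myoblasts, rose with stimulation in every genotype and were lower in both clones than in WT cells throughout. *Adam12* had 19.8, 20.4 and 19.6 CPM in uninduced and 139.97, 154 and 160.1 CPM in stimulated WT cells. In clone 1 the values were 6.76, 7.94 and 5.7 CPM and 33.1, 32.6 and 34.4 CPM, and in clone 2 5.84, 5.4 and 4.7 CPM and 33.1, 32.8 and 35.2 CPM. Stimulated clone libraries lay above the uninduced and far below the stimulated WT libraries. The log2 fold change on stimulation was 2.93 in WT cells (SE 0.08, adjusted p = 6.83e-23, edgeR), with 2.30 and 2.63 in clones 1 and 2. Against stimulated WT cells both clones were lower by nearly the same amount, -2.18 (SE 0.08) and -2.17 (SE 0.08).

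*Adam19* had 40.5, 40.2 and 39.1 CPM in uninduced and 243, 245 and 246 CPM in stimulated WT cells. Clone 1 had 9.84, 9.87 and 8.34 CPM and 66.2, 71.5 and 55.6 CPM, and clone 2 had 17.7, 17.5 and 17 CPM and 82.9, 77.2 and 71.9 CPM. It rose on stimulation in all genotypes (log2 fold changes 2.62, 2.79 and 2.15 in WT and clones 1 and 2) from a lower start in the clones. The rise in clone 2 was smaller than that in WT cells by a difference of -0.47 (adjusted p = 7.63e-04, edgeR), under the fold threshold. Against stimulated WT cells the log2 fold change was -1.92 (SE 0.07, adjusted p = 3.02e-20, edgeR) in clone 1 and -1.66 (SE 0.07, adjusted p = 1.21e-18) in clone 2. Antisense transcripts cover 10.1% of its exonic bases. A list of 6 myofibroblast markers also had lower sums in the clones than in WT cells, but its sums were higher after stimulation in WT cells and not in the clones, unlike *Adam12* and *Adam19*. Its summed level was 1455 to 1481 CPM in uninduced and 3213 to 3403 CPM in stimulated WT cells. The sums were 1006 to 1035 and 876 to 932 CPM in uninduced and stimulated clone 1, and 806 to 849 and 710 to 825 CPM in clone 2. Of the 6 markers, 4 reached 1 CPM in each WT group and 3 in each clone group, and *Cnn1* in uninduced and *Myl9* in stimulated clone 1 had no count. Fewer cells of a type and less RNA per cell cannot be told apart in bulk libraries, and the part of these markers in the result was not tested.

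*Adam23*, a neuronal and fibroblast ADAM without proteinase activity that binds LGI proteins and integrins, was nearly lost from both clones. It had 130.1, 119.7 and 130.4 CPM in uninduced and 37.1, 46.8 and 42 CPM in stimulated WT cells. Clone 1 had 0.307, 0.483 and 0.932 CPM uninduced and 0.213, 0.184 and 0.137 CPM stimulated, and clone 2 had 1.36, 0.664 and 0.928 CPM and 0.672, 0.523 and 0 CPM. All 12 clone libraries were near 0, with 33 and 12 counts over the 3 libraries of uninduced and stimulated clone 1 and 92 and 20 in clone 2, against 7938 and 2773 in WT cells. The log2 fold changes were -7.77 (SE 0.24, adjusted p = 3.16e-16, edgeR) and -6.88 (SE 0.21) in uninduced clones 1 and 2, and -7.84 and -6.69 in stimulated clones. Its 7 tested neighbours within 500 kb on chromosome 1 had median log2 fold changes of -0.15 and -0.03 in stimulated clones 1 and 2 and a lowest value of -0.44 and -0.38. The fall on stimulation was called in WT cells (-1.59, adjusted p = 5.35e-09, edgeR). In the clones, at these low counts, its call was lost without any of 5 of the 6 libraries in clone 1, all but uninduced replicate 1 (adjusted p 0.0564 to 0.226), and without uninduced replicate 1 or stimulated replicate 3 in clone 2 (0.17 and 0.0794), where the log2 fold change of -1.40 became -0.80 without stimulated replicate 3 and -2.05 without stimulated replicate 1.

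The sheddases *Adam10* and *Adam17*, which release Notch, cadherin and growth factor ectodomains and TNF, were called nowhere. *Adam10* had 171, 148 and 154 CPM in uninduced and 109, 111 and 106 CPM in stimulated WT cells. It had 290.1, 282 and 300.4 CPM uninduced and 187, 199.6 and 210.2 CPM stimulated in clone 1 and 303, 284 and 302 CPM uninduced and 199, 206 and 206 CPM stimulated in clone 2. The clone libraries were all above the WT libraries of their treatment, with log2 fold changes of 0.88, 0.91, 0.87 and 0.91, just under the fold threshold, and the change on stimulation was -0.54, -0.55 and -0.54 in WT, clone 1 and clone 2. *Adam17* had 96.2, 94.8 and 95.7 CPM in uninduced and 105, 100.5 and 99.8 CPM in stimulated WT cells. Its stimulated level was 108, 111 and 111 CPM in clone 1 and 151, 162 and 154 CPM in clone 2, from 71.7, 73.2 and 81 and 86.4, 74.6 and 86.2 CPM uninduced. The log2 fold change of *Adam17* on stimulation was 0.09 in WT cells, with 0.55 and 0.92 in clones 1 and 2. *Adam9* (meltrin gamma) rose with stimulation in the clones, by 1.23 and 1.52 on the log2 scale, and had 0.56 in WT cells. Relative to WT its log2 fold changes were 0.47 and -0.42 in uninduced and 1.15 and 0.54 in stimulated clones 1 and 2. It was the 1 ADAM gene called higher than WT in stimulated clone 1. *Adam11*, another ADAM without proteinase activity, fell with stimulation by 9.88-fold, 8.23-fold and 8.47-fold in WT, clone 1 and clone 2, and its WT log2 fold change of -3.30 became -4.13 without stimulated WT replicate 3. Uninduced clone 2 was lower than WT by -1.07, which was 0.90 in size and under the threshold without uninduced WT replicate 1. *Adam5*, which is best known from testis, had 108 counts in uninduced and 4 in stimulated WT cells, 59 and 0 in clone 2 (at least 11.6-fold lower) and 1 and 0 in clone 1, and all 4 stimulated WT counts were in replicate 1. *Adam15* had 74.5 ± 11 CPM and *Adam8* 1.62 ± 1.53 CPM in uninduced WT cells, and neither was called in any comparison. Every clone library of *Adam15* still lay above every WT library of its treatment. An antisense gene covers 20.6% of the exonic bases of *Adam15*, so reads may be mixed.

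Of the 13 tested ADAMTS genes, 7 were lower in both clones in uninduced cells, and 6 of these, all but *Adamts14*, were also lower in both after stimulation. Over the 43 genes, 12 were lower in both uninduced clones, 27.9% against 5.78% of all tested genes. The procollagen N-proteinase gene *Adamts2* had 125, 119.8 and 122 CPM in uninduced and 182, 183 and 183 CPM in stimulated WT cells. Clone 1 had 32.8, 38.7 and 35.4 CPM uninduced and 70.9, 64.2 and 62.2 CPM stimulated, and clone 2 had 40.5, 37.7 and 41.7 CPM uninduced and 50.6, 54.3 and 46.2 CPM stimulated. Every clone library lay below every WT library of its treatment, with log2 fold changes of -1.78 and -1.61 uninduced and -1.48 and -1.86 stimulated (SE 0.06 to 0.07, adjusted p of 1.95e-18 or below, edgeR). The 15 tested genes within 500 kb of *Adamts2* had medians of -0.10 and -0.35 in stimulated clones 1 and 2. Of these, 4 were called lower in both. Of all tested genes, 9.6% and 8.94% were lower in clones 1 and 2 taken singly. The share lower in both stimulated clones, which cannot exceed either, was not computed. Among the 15 neighbours *Rnf130* had the lowest values, -4.84 and -6.24. A regional shift was not tested. The related N-proteinase gene *Adamts14* had 14.8, 16.8 and 16.3 CPM in uninduced and 4.5, 5.49 and 4.51 CPM in stimulated WT cells. It had 1.69, 1.45 and 0.725 CPM uninduced and 0.426, 0.295 and 0.228 CPM stimulated in clone 1, where both comparisons were called, and 5.13, 4.69 and 5.8 CPM uninduced and 3.08, 2.55 and 2.89 CPM stimulated in clone 2. In stimulated clone 2 the log2 fold change of -0.76 was under the fold threshold, and the clones differed from each other by -3.17 (clone 1 relative to clone 2, adjusted p = 8.70e-10, edgeR).

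Among the genes for proteoglycan cleaving enzymes, *Adamts5*, the major mouse aggrecanase, had 134, 126 and 135 CPM in uninduced and 90.2, 87.6 and 92.7 CPM in stimulated WT cells. In clone 1 it had 70.4, 63.5 and 54.3 CPM uninduced and 23.1, 28.5 and 27.4 CPM stimulated, and in clone 2 38.8, 36 and 38.8 CPM uninduced and 26.6, 30.8 and 28.1 CPM stimulated. It fell with stimulation past the fold threshold in clone 1 (-1.25) and had -0.55 in WT cells and -0.41 in clone 2. Relative to WT its log2 fold change was -1.07 and -1.80 in uninduced and -1.77 and -1.66 in stimulated clones 1 and 2, and the first of these became -0.98 without uninduced clone 1 replicate 3. *Adamts9*, a versicanase gene, had 3.61, 7.65 and 6.4 CPM in uninduced and 1.08, 2.16 and 2.43 CPM in stimulated WT cells. Clone 1 had no *Adamts9* count in any of its 6 libraries, at least 115-fold lower than WT in uninduced and at least 43.3-fold lower in stimulated cells. Clone 2 had 0.915, 0.797 and 0.348 CPM uninduced and 0.28, 0.458 and 0.601 CPM stimulated, log2 fold changes of -3.02 and -2.08 relative to WT. Antisense genes cover 12% of the exonic bases of *Adamts9*, so reads may be mixed. *Adamts15*, which also cleaves versican and aggrecan, had 9.67, 6.61 and 5.53 CPM in uninduced and 0.782, 0.475 and 0.361 CPM in stimulated WT cells. Uninduced clones 1 and 2 held 5 and 4 counts in all, in replicate 3 alone, and the stimulated clones held none, at least 12.0-fold and 8.83-fold lower than WT. *Adamts1*, the neighbour of *Adamts5* on chromosome 16 (both within chr16:85793827-85901828), did not share its pattern: when uninduced it had 297 ± 5.42 CPM in WT cells and 292 ± 10.6 and 177 ± 13.2 CPM in clones 1 and 2. *Adamts1* was not called against WT in either treatment, but its change on stimulation was higher in clone 2 than in WT cells by 1.203 on the log2 scale (SE 0.08). *Adamts4*, the other main aggrecanase gene, had 39.6 ± 1.01 CPM in uninduced WT cells and was called in no comparison.

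*Adamts16* and *Adamts17*, whose products act on fibronectin and fibrillin matrices, were nearly absent from the clones. *Adamts17* had 12.8, 11.3 and 9.83 CPM in uninduced and 8.71, 10.4 and 8.48 CPM in stimulated WT cells. Clone 1 had 0.205, 0.375 and 0.0518 CPM uninduced and 0, 0 and 0.137 CPM stimulated, and clone 2 0.513, 0.443 and 0.348 CPM uninduced and 0.224, 0.196 and 0.241 CPM stimulated. Over 3 libraries these were 693 and 606 counts in WT cells, 12 and 3 in clone 1 and 39 and 11 in clone 2, and stimulated clone 1 was 208-fold lower than WT (95% counting interval 71 to 1010). All 3 of those counts were in replicate 3. Its fall on stimulation in clone 1 (4.72-fold, 1.27 to 26.1) was not called without any of 4 of the 6 libraries, replicates 1 and 2 of both treatments (adjusted p 0.06 to 0.242, edgeR), and its log2 fold change of -2.10 became -5.20 without stimulated replicate 3. *Adamts16* had 5.82, 5.45 and 4.84 CPM in uninduced and 2.59, 2.46 and 2.62 CPM in stimulated WT cells. The clones held 12 and 9 counts uninduced and 1 and 0 stimulated, where WT cells held 331 and 168. Stimulated clone 2 was at least 42.4-fold lower, and stimulated clone 1 173-fold lower (95% counting interval 30.7 to 6890). The fall on stimulation in clone 2, from 9 counts to 0, was not called without uninduced replicate 1 or any stimulated replicate (adjusted p 0.0505 to 0.0766, edgeR). One of the only 2 tested neighbours of *Adamts16* within 500 kb, *Gm36426*, was also called lower in both stimulated clones, while *Ice1* had log2 fold changes of -0.95 and -0.86 in stimulated clones.

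*Adamts12*, whose enzyme cleaves cartilage oligomeric matrix protein, was the 1 member called higher in both uninduced clones (2.33%, against 3.28% of all tested genes). It had 20.7, 24.2 and 26 CPM in uninduced and 60.8, 65.3 and 67 CPM in stimulated WT cells. Clone 1 had 48.7, 48.9 and 47.9 CPM uninduced and 79.4, 98.6 and 93.3 CPM stimulated, and clone 2 had 51.7, 45.8 and 47.5 CPM uninduced and 97.9, 99.8 and 98.3 CPM stimulated. All uninduced clone libraries lay above all uninduced WT libraries, with a log2 fold change of 1.03 in each clone. Without uninduced WT replicate 1 this became 0.94 and 0.95 in clones 1 and 2, and without uninduced clone 2 replicate 1 it became 0.97 in clone 2, all under the fold threshold. Its rise with stimulation was called in WT cells (1.44) and in clone 2 (1.02, or 0.98 without uninduced clone 2 replicate 2). The related *Adamts7* fell with stimulation in all genotypes (-1.37, -1.09 and -2.52) and further in clone 2, to 2.27 ± 0.355 CPM against 12.5 ± 1.67 CPM in WT and 10.4 ± 0.402 CPM in clone 1. *Adamts10* and *Adamts6*, genes for fibrillin-binding enzymes, rose with stimulation in clones 1 and 2 and in WT and clone 2, respectively, with log2 fold changes of 1.28 and 1.37 for *Adamts10* and 2.87 and 1.85 for *Adamts6*, the last of which became 2.68 without uninduced clone 2 replicate 1. In uninduced clone 1 *Adamts6* was higher than in WT cells (1.40), and in stimulated clone 2 it was lower (-1.07), a call that ended without stimulated clone 2 replicate 3 at 0.90 in size.

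All 5 ADAMTS-like genes were called in the WT response, 2 higher and 3 lower, where 19.9% of all tested genes were called. *Adamtsl2*, whose product binds fibrillin and latent TGF-β binding protein, went from 4 counts (all in replicate 2) to 4.65, 4.23 and 4.15 CPM in WT cells. It rose from 12 counts to 8.09, 7.26 and 5.28 CPM in clone 1 and from 1 count to 7.45, 6.41 and 4.99 CPM in clone 2. The log2 fold change was 5.95 in WT cells, or 9.56 without uninduced WT replicate 2 and 5.23 without uninduced WT replicate 3, and 5.00 in clone 1, or 5.65 without uninduced clone 1 replicate 3. The rise in clone 2 was 534-fold (95% counting interval 95.2 to 21200). Stimulated clone libraries lay just above the stimulated WT libraries, with log2 fold changes of 0.66 and 0.53 that were not called. *Adamtsl1* fell in clone 1 (-3.83, or -4.63 and -3.24 without stimulated replicates 1 and 3), in clone 2 (-2.59) and in WT cells (-1.18), and its WT call was lost without any of 5 of the 6 libraries, all but uninduced replicate 1 (adjusted p 0.0642 to 0.119, edgeR). It was higher than WT in uninduced clone 1 (1.54) and lower in stimulated clone 2 (-2.10, adjusted p = 0.0813 without stimulated clone 2 replicate 3, edgeR). *Adamtsl3* rose in WT cells from 84.7, 73.5 and 82.4 CPM to 255, 286 and 265 CPM. In clone 1 it had 134, 129.9 and 126 CPM uninduced and 105, 119 and 137 CPM stimulated, and in clone 2 122, 114 and 127 CPM uninduced and 153, 140.1 and 137 CPM stimulated. The clones thus lay above WT when uninduced and below it when stimulated, with log2 fold changes on stimulation of -0.11 and 0.25 against 1.74 in WT cells. Relative to stimulated WT cells, clone 1 was called lower (-1.16), and clone 2 had -0.91, under the fold threshold.

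*Adamtsl4*, a microfibril gene known from lens displacement, was above WT in every clone library of both treatments. It fell in WT cells from 40.9, 50.2 and 45.3 CPM to 11.5, 11.1 and 9.83 CPM. Clone 1 had 107, 104 and 108 CPM and 89.4, 92.8 and 99.5 CPM, and clone 2 had 58.8, 55.6 and 64.6 CPM and 23.4, 20.9 and 20.7 CPM. Clone 1 had a log2 fold change of -0.18 on stimulation and ended 8.69-fold above stimulated WT cells (log2 fold change 3.12, SE 0.08, adjusted p = 2.38e-23, edgeR). In stimulated clone 2 the log2 fold change of 1.01 was 0.94 without stimulated WT replicate 3 and 0.95 without stimulated clone 2 replicate 1, under the fold threshold. *Adamtsl5* was lower than WT in clone 1 and higher in clone 2. This gene lies on chromosome 10 (chr10:80339110-80348412), between *Mmp11* and *Timp3*. The genes around it were not examined, and the part of a regional shift in its values was not tested. *Adamtsl5* fell from 20.2, 16.6 and 16.4 CPM to 7.04, 6.78 and 6.49 CPM in WT cells. It fell from 6.4, 7.29 and 5.9 CPM to 2.93, 2.62 and 3.83 CPM in clone 1 and from 52.2, 51.9 and 52.9 CPM to 21.4, 24.8 and 20.4 CPM in clone 2. The genotypes did not overlap in either treatment, with log2 fold changes of -1.44 uninduced and -1.12 stimulated in clone 1, the second of which was -0.99 without stimulated clone 1 replicate 2, and of 1.56 and 1.71 in clone 2. The fall in clone 1 (-1.07) was 0.93 to 0.98 in size without replicate 2 of either treatment.

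The gelatinase gene *Mmp2* was the most abundant proteinase gene in all groups per kilobase. It had 1519.9, 1588 and 1476 CPM in uninduced and 2822, 2857 and 2683 CPM in stimulated WT cells. The log2 fold change of 0.87 in WT cells was under the fold threshold. Clone 1 rose from 1640.3, 1754 and 1729 CPM to 3619, 3589 and 3555 CPM, and clone 2 from 2309, 2184 and 2363 CPM to 5772, 5897 and 5773 CPM. Stimulated clone 2 stood 2.09-fold above WT (log2 fold change 1.06, SE 0.04, adjusted p = 6.97e-20, edgeR), and stimulated clone 1 had a log2 fold change of 0.36 under the fold threshold. The 10 tested neighbours of *Mmp2* within 500 kb on chromosome 8, among them the carboxylesterase genes *Ces1d* and *Ces1f*, had a median log2 fold change of 2.75 and 2.39 in stimulated clones 1 and 2. *Mmp14*, the membrane-anchored activator of MMP2, had 1091, 1055 and 1119.8 CPM in uninduced and 676, 679 and 623 CPM in stimulated WT cells. Clone 1 had 1098, 1232 and 1168 CPM uninduced and 665, 666 and 682 CPM stimulated, and clone 2 1033, 987 and 1079 CPM uninduced and 683, 649.8 and 608 CPM stimulated. The genotypes overlapped in both treatments, and the log2 fold changes relative to WT lay between -0.08 and 0.10 (SE 0.05), while the change on stimulation was -0.72, -0.80 and -0.68 in WT, clone 1 and clone 2.

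Of the other membrane-type MMP genes, *Mmp15*, *Mmp16* and *Mmp17* were tested, and *Mmp24* and *Mmp25* had too few counts. *Mmp16* had 196, 187 and 194 CPM in uninduced and 61.1, 62 and 70.3 CPM in stimulated WT cells. Clone 1 had 107, 99 and 102 CPM uninduced and 23, 20.3 and 24.6 CPM stimulated, and clone 2 53.5, 48.4 and 47.9 CPM uninduced and 22.8, 26.5 and 26.8 CPM stimulated. Both stimulated clones were below WT (-1.52 and -1.35, SE 0.08, adjusted p of 2.01e-15 or below, edgeR). *Mmp15* fell with stimulation in every genotype, by 3.7-fold in WT, 5.67-fold in clone 1 and 9.82-fold in clone 2. After stimulation the 3 WT libraries had 1.96, 3.54 and 3.88 CPM, those of clone 1 1.97, 1.59 and 0.865 CPM and those of clone 2 1.46, 0.85 and 1.5 CPM, and clone 1 overlapped WT at its highest value. The log2 fold change of -1.10 in clone 1 was 0.826 to 0.996 in size, under the threshold, without stimulated WT replicate 2 or 3 or stimulated clone 1 replicate 3, and the value in clone 2 was -1.29. *Mmp17* rose with stimulation in all genotypes, by 1.55, 1.75 and 2.72 on the log2 scale, to at most 3.36 ± 0.155 CPM.

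*Mmp28* (epilysin) and *Mmp11* (stromelysin-3), secreted MMPs that are activated by furin inside the cell, were the MMP genes with a higher response in both clones. *Mmp28* had 9.67, 6.76 and 7.05 CPM in uninduced and 9.1, 8.16 and 9.02 CPM in stimulated WT cells. Clone 1 rose from 10.9, 11.3 and 8.65 CPM to 42.2, 41.7 and 42.1 CPM, and clone 2 from 16.7, 16.3 and 17.9 CPM to 40.3, 44.1 and 43.4 CPM. All 6 stimulated clone libraries lay far above every WT library, and the log2 fold change relative to stimulated WT was 2.26 (SE 0.11, adjusted p = 5.05e-17, edgeR) in clone 1 and 2.28 (SE 0.11) in clone 2. The antisense gene *1700020L24Rik* covers 12% of the exonic bases of *Mmp28*, and the reads of both may be mixed. Relative to WT it had log2 fold changes of -0.32 and 0.62 in uninduced and 2.547 and 2.205 in stimulated clones 1 and 2. The part of antisense reads in the values of *Mmp28* was not tested. *Mmp11* had 45.7, 57.9 and 54.6 CPM in uninduced and 27.1, 29.8 and 27.2 CPM in stimulated WT cells. It had 40.8, 41.7 and 33.7 CPM uninduced and 55.4, 55.7 and 47.2 CPM stimulated in clone 1 and 80.9, 87.7 and 84 CPM uninduced and 126, 127 and 114 CPM stimulated in clone 2. WT values went down and clone values went up on stimulation, and in stimulated clone 2 the log2 fold change relative to WT was 2.12 against 0.91 in clone 1. The antisense gene *Chchd10* covers 5.58% of the exonic bases of *Mmp11*, so reads may be mixed here too. *Chchd10* had log2 fold changes of -0.82 and 0.38 in uninduced and 0.36 and 2.19 in stimulated clones 1 and 2. Its part in the values of *Mmp11* was not tested.

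*Mmp9* and *Mmp3* were scarce. The gelatinase gene *Mmp9* fell with stimulation from 40, 57 and 100 counts to 13, 8 and 15 in WT cells. It fell from 76, 68 and 91 counts to 1, 8 and 5 in clone 1 and from 124, 73 and 51 counts to 0, 7 and 3 in clone 2. The log2 fold changes were -2.47 in WT cells and -4.29 and -3.84 in clones 1 and 2, the last of which became -3.21 without stimulated clone 2 replicate 1 and -4.99 without replicate 2. Both stimulated clones were called lower than WT (-1.41, adjusted p = 0.0326, and -1.41, adjusted p = 0.0491, edgeR) with 14 and 10 counts against 36. Each of these calls was lost without any of 4 of the 6 libraries, replicates 1 and 3 of stimulated WT and of the clone, with adjusted p-values between 0.0555 and 0.128 for clone 1 and between 0.111 and 0.265 for clone 2. In clone 2 the log2 fold change became -0.79 without stimulated clone 2 replicate 1 and -2.58 without replicate 2. *Mmp3* had 1 count in uninduced (replicate 3) and 0.196, 0.691 and 0.767 CPM in stimulated WT cells, a 35.1-fold rise (95% counting interval 5.93 to 1430). Clone 1 had 1.28, 0.805 and 1.14 CPM uninduced and 3.25, 2.77 and 3.87 CPM stimulated, and clone 2 had 2 counts and 0.056, 0.262 and 0.361 CPM. The rise in clone 2 was 9.35-fold (2.04 to 86.9) and was not called without uninduced clone 2 replicate 1 or stimulated clone 2 replicate 3 (adjusted p 0.0516 and 0.0794, edgeR). Clone 1 was the genotype with the highest *Mmp3* in both treatments, 67.4-fold above WT uninduced (95% counting interval 11.7 to 2700) and 5.87-fold above it stimulated, and above clone 2 by a log2 fold change of 3.85 after stimulation (adjusted p = 1.75e-06, edgeR). *Mmp23* was near the floor in the clones, with 59 and 10 counts in uninduced and stimulated WT cells, 1 and 2 in clone 1 and 5 and 0 in clone 2. Uninduced clone 1 was 54.3-fold lower than WT (95% counting interval 9.37 to 2180), and the call in stimulated clone 2 (at least 2.52-fold) was lost without stimulated WT replicate 3 or any clone replicate (adjusted p 0.0699 to 0.0808, edgeR). *Mmp19* had 43.7 ± 2.84 CPM in uninduced WT cells and was called in no comparison, although every clone library lay above every WT library of its treatment. Antisense genes cover 28.3% of the exonic bases of *Mmp19*, so reads may be mixed, and their part in its values was not tested.

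**Figure D3:**
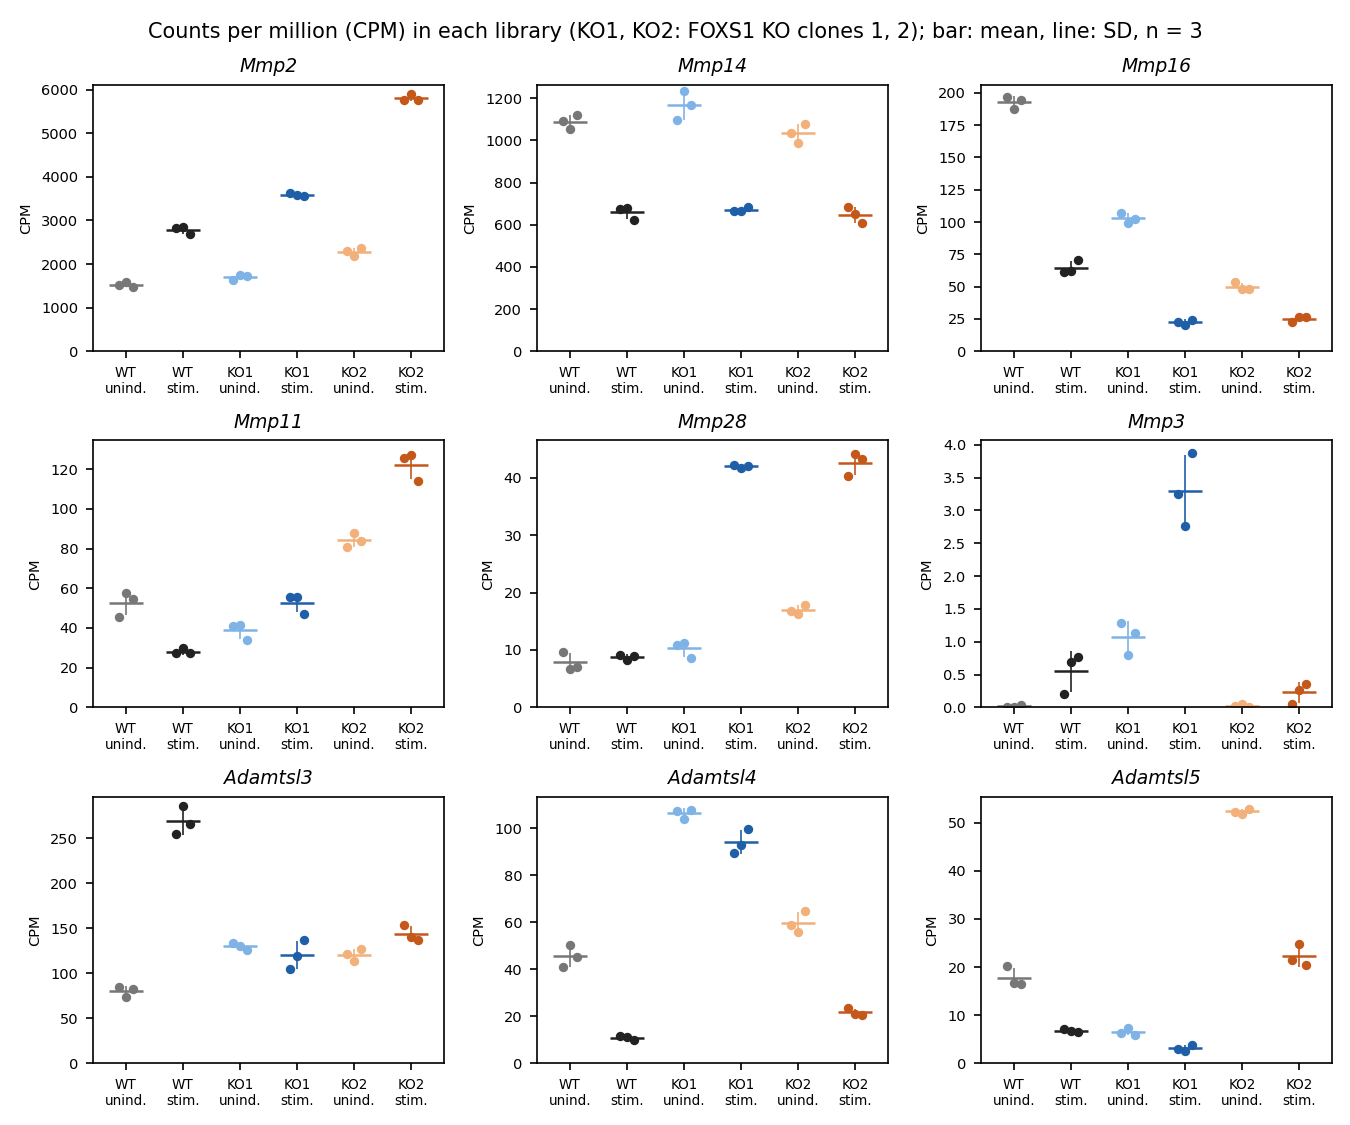
TMM-scaled CPM on a linear axis from 0 in each of the 18 libraries (points) with the group mean (bar) and SD (line) for 6 MMP and 3 ADAMTS-like genes. *Mmp28* was highest in the 6 stimulated clone libraries, *Adamtsl3* in the 3 stimulated WT libraries, and *Adamtsl5* was above WT in clone 2 and below it in clone 1.

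The response to stimulation was compared between each clone and WT as an interaction in the same model. In clone 1 it differed from WT for 9 of the 43 genes, 3 higher and 6 lower (5.34% and 3.46% of all tested genes), and in clone 2 for 6, 3 higher and 3 lower (4.89% and 2.96%). *Mmp11* and *Mmp28* were higher and *Adamtsl3* lower in both clones, 4.65% and 2.33% of the 43 genes, where 3.12% and 1.6% of all tested genes were higher and lower in both. For *Mmp11* the difference was 1.36 (SE 0.12, adjusted p = 5.24e-10, edgeR) in clone 1 and 1.45 (SE 0.12, adjusted p = 8.19e-11) in clone 2 on the log2 scale. For *Mmp28* it was 1.86 (SE 0.17) and 1.15 (SE 0.16), the second of which was 0.99 without uninduced WT replicate 1. For *Adamtsl3* it was -1.86 (SE 0.10, adjusted p = 1.90e-13, edgeR) and -1.50 (SE 0.10, adjusted p = 1.50e-11). No ADAM gene was called in either clone. *Adam9* and *Adam17* came closest in clone 2 among those with adjusted p below 0.05, with differences of 0.97 and 0.83.

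**Figure D4:**
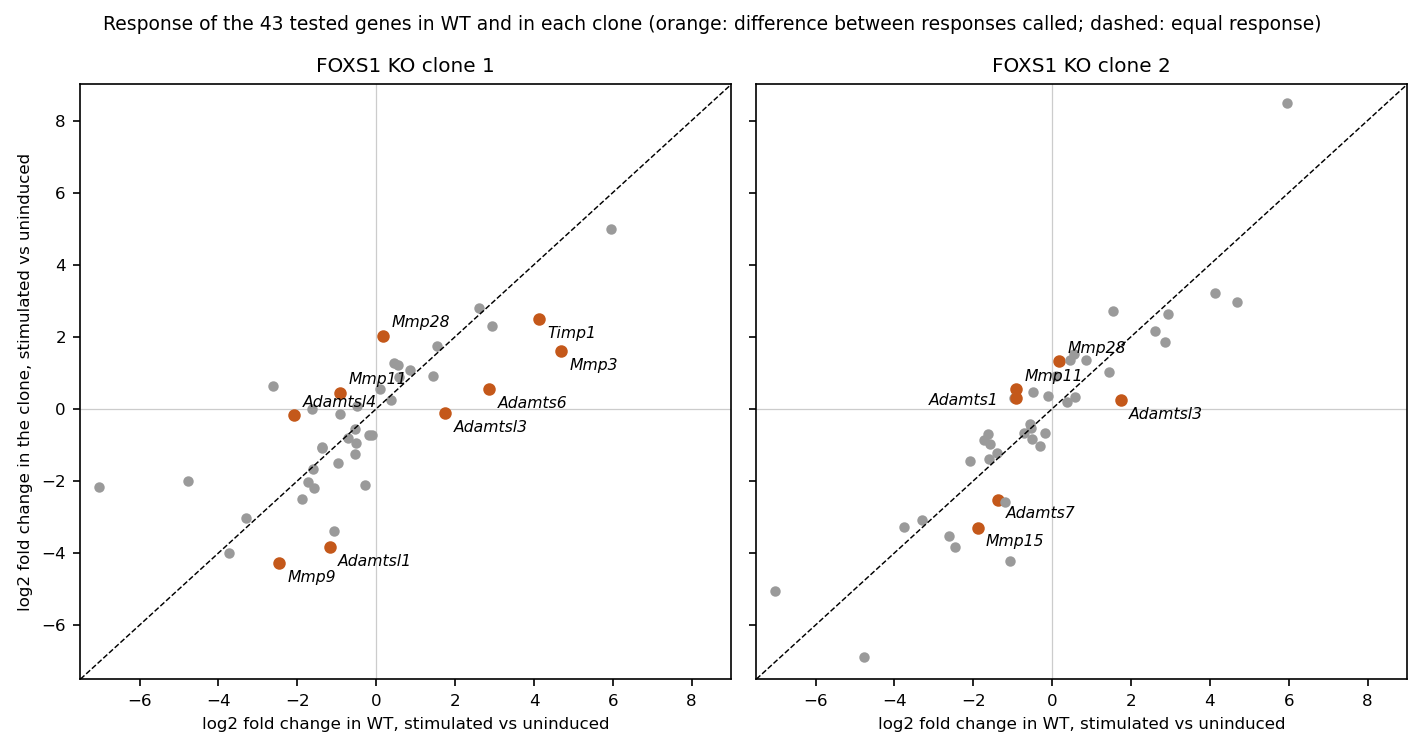
Log2 fold change on stimulation in WT cells (horizontal axis) against that in clone 1 (left) and clone 2 (right) for the 43 tested genes. Orange points, which are named, had a response that differed from WT by more than the thresholds (9 in clone 1 and 6 in clone 2), and the dashed line marks equal responses.

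After stimulation, clones 1 and 2 differed from each other for 9 of the 43 genes, 4 higher in clone 1 and 5 lower (5.5% and 4.48% of all tested genes). *Adamtsl4*, *Adamts7*, *Mmp3* and *Mmp17* were higher in clone 1, with log2 fold changes of 2.11, 2.20, 3.85 and 1.35. *Adamtsl5*, *Adamts14* and *Mmp11* were lower in clone 1 (-2.83, -3.17 and -1.21), as were *Adamts9*, with 0 against 22 counts (at least 10.0-fold), and *Adamts17*, with 3 against 11. The call of *Adamts17* was lost without any of 5 of the 6 libraries, all but clone 1 replicate 3 (adjusted p 0.054 to 0.162), without which its log2 fold change of -2.18 became -5.30, while it became -1.52 without clone 1 replicate 2.

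Other genes of the pericellular protease system were described from lists. The plasminogen system activates several MMPs, and 3 of its 7 tested genes in clone 1 and 2 in clone 2 were lower than in stimulated WT cells, with none higher. Of all tested genes, 9.6% and 8.94% were lower and 9.42% and 7.95% higher in these comparisons of clones 1 and 2, shares against which the lists below are also to be read. After stimulation the urokinase gene *Plau* had 16 ± 1.79 CPM in WT and 1 ± 0.411 and 1.73 ± 0.37 CPM in clones 1 and 2, with log2 fold changes of -4.02 and -3.20. The tissue plasminogen activator gene *Plat* had 123 ± 4.51 CPM in WT and 30.4 ± 2.65 and 15.1 ± 1.78 CPM in the clones. Of 15 tested astacins and other matrix proteases, 1 was higher and 5 lower in stimulated clone 1, and none was higher and 3 lower in clone 2. *Htra1*, a secreted serine protease gene, had 3667 counts over the stimulated WT libraries and 2 and 15 over those of clones 1 and 2. *Tll1*, a procollagen C-proteinase gene, had 22.5 ± 1.24 CPM in stimulated WT and 5.24 ± 0.821 and 1.65 ± 0.369 CPM in the clones.

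Of 13 tested genes for membrane proteins that guide MMPs and ADAMs, 4 were higher and none lower in each stimulated clone, and 9 were not called in either direction. The tetraspanin gene *Cd9* stood at 22.9 ± 0.98 CPM in stimulated WT and at 167 ± 4.08 and 154 ± 3.55 CPM in clones 1 and 2. *Tspan15*, whose product guides ADAM10 to cadherins, had 12.8 ± 1.51 CPM in WT and 42.3 ± 3.38 and 78 ± 4.46 CPM in the clones, and the caveolin gene *Cav1* had 7.94 ± 0.153 CPM in WT and 30.9 ± 2.08 and 20.5 ± 2.17 CPM in the clones. Of 5 tested proprotein convertases, 1 (*Pcsk6*) was higher in each stimulated clone, with 1.82 and 1.73 on the log2 scale, and none was lower. Of 5 tested other inhibitors and clearance receptors, 1 was higher and 1 lower in each, and the higher was the cysteine protease inhibitor gene *Cst3* (1.87 and 1.29), while the lower was the serpin gene *Serping1*, with 22 counts in WT and 3 and 1 in clones 1 and 2. Among 21 tested substrates shed by ADAM10 or ADAM17, 7 were higher and 2 lower in stimulated clone 1, and 6 were higher and 1 lower in clone 2, beside 9.42% and 9.6% of all tested genes in clone 1 and 7.95% and 8.94% in clone 2. *Nrg1*, the neuregulin gene, was lower (-3.50 and -2.90), and the epiregulin gene *Ereg* (1.45 and 2.89) and the stem cell factor gene *Kitl* (2.28 and 1.98) were higher in clones 1 and 2. These values are levels of RNA and not of enzyme activity or shedding.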

How the data were processed

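The deposited table held raw gene counts for all 18 libraries, which the authors obtained by aligning paired-end reads of polyA-enriched RNA to mm10 with HISAT2. For the counting program, its strand setting and the annotation release, the sources used here give nothing. Counts were analyzed as deposited with R (4.3.3). After a filter (filterByExpr, minimum count 10), TMM scaling and robust dispersion estimation, edgeR (4.0.16) quasi-likelihood tests were fitted over all 14317 retained genes in 1 model with a mean for each of the 6 groups. DEGs had an adjusted p < 0.05 (Benjamini-Hochberg over all retained genes) and an absolute log2 fold change > 1, the thresholds of the study. The fitted fold change of a gene at 0 counts depends on the model, so bounds at a floor of 3 counts per group, or ratios with 95% counting intervals, are given instead. Sequencing depth limited genes under 1 CPM. Levels were compared between genes only per kilobase of the gene length in the deposited table.

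The genes and lists were chosen with earlier results of these data known. Library values were given for the 4 TIMP genes, *Mmp2*, *Mmp14*, *Adam10* and *Adam17*, and, at a group mean of at least 1 CPM, for genes called in both clones or among the largest changes; counts or values of other genes were chosen after their values were seen. Alternatives were DESeq2 (1.42.0), its size factors, other filters, fewer groups, a replicate block, other fold criteria and leaving out each library. The procedure was tested on simulated data. Libraries were not paired by replicate number, since deviations of same-numbered libraries correlated at -0.039 to 0.05. These correlations show no shared effect of the number, but not how the cultures were arranged, which the labels do not state. Promoters and motif words were read from RefSeq (GRCm38.p6), and gene coordinates from the deposited table (GRCm38), where 82 of 83 genes matched the GENCODE M21 annotation.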

Additional observations from a re-analysis of the deposited data

Results flagged for a closer look

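The change on stimulation differed between a clone and WT cells, by the interaction test in edgeR, for the genes below, in libraries labelled FOXS1 KO. All values are differences of log2 fold changes, clone minus WT, and each clone was compared with the same WT libraries. In both clones the difference was positive for *Mmp11* (1.357 in clone 1 and 1.451 in clone 2) and *Mmp28* (1.859 and 1.155) and negative for *Adamtsl3* (-1.856 and -1.497). The value of *Mmp28* in clone 2 was 0.99 without uninduced WT replicate 1.

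In clone 1 alone, *Adamtsl4*, a microfibril gene, had a positive difference (1.897). *Timp1* (-1.644), *Adamts6* (-2.324) and *Adamtsl1* (-2.649) had negative differences there, and that of *Adamtsl1* became -3.46 without stimulated clone 1 replicate 1. *Mmp9* (-1.821) and *Mmp3* (-3.091) were also negative in clone 1, at low counts. The call of *Mmp9* was lost without any of 5 of the 12 libraries (adjusted p 0.0519 to 0.0981) and that of *Mmp3* without any of 8 (0.0528 to 0.0915), while the value of *Mmp3* became -4.98 without uninduced WT replicate 3. In clone 2 alone, the difference was positive for *Adamts1* (1.203) and negative for *Adamts7* (-1.15) and *Mmp15* (-1.409). A call in 1 clone and not in the other does not show that the clones' responses differ, which was not tested.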

How the results depend on the processing

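Of 175 called log2 fold changes of single genes, none reversed under any alternative run. The call was lost for 1 with DESeq2 (*Adamts15*, WT response, adjusted p = 0.0719), for none with DESeq2's size factors, for 2 without the count filter (*Adamts12*, clone 2 response, and *Adamtsl4*, stimulated clone 2, at log2 fold changes under the threshold), for 1 of 168 with a filter of 1 CPM in 3 libraries (*Mmp9*, stimulated clone 2, adjusted p = 0.0503), for none of 161 with only the groups compared and for 45 when the fold threshold itself was tested (glmTreat). Leaving out 1 library at a time lost 69 of 1140 calls. A replicate block was also run, although the labels state no pairing. With it the counts were 25 for the WT response and 21 and 23 for clones 1 and 2, and 2 calls were lost (*Adam23*, clone 1 response, adjusted p = 0.0645, and *Mmp9*, stimulated clone 2, 0.0509, edgeR).

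Without a fold threshold the counts of genes called grew by construction, as did the shares of all tested genes. They were 38 (60.7% of all genes) for the WT response, 34 (54.5%) and 38 (55.8%) for the responses of clones 1 and 2, 34 (53.5%) and 33 (53.2%) for uninduced clones 1 and 2 against WT and 34 (58.9%) and 33 (56.0%) for the stimulated clones. They were 23 (31.6%) and 21 (31.2%) for the differences in response and 21 (45.4%) between the clones. When the fold threshold was tested, 14 genes remained called for the clone 1 response and 2 for the difference in response of clone 2. Leaving out a library gave 24 to 26 genes for the WT response and 18 to 23 for stimulated clone 2, and every other count also stayed within 1.5 times its value. Genes with few counts (*Adam5*, *Adamts15*, *Adamts16*, *Mmp3*, *Mmp9*, *Mmp23* and *Timp4*) are limited by depth.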
